A study of Mus musculus with 10 samples.

Results

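Poly(A) tails and read numbers of 8 histone variant genes were followed in P19 cells after knockdown of Larp1. The genes were H2afz and H2afv (histone H2A.Z), H2afx (H2A.X), H2afy (macroH2A), H3f3a and H3f3b (histone H3.3), H1f0 (H1.0) and H1fx (H1.10). They were chosen by name, as replacement histone genes whose mRNAs carry a tail, out of 13272 genes with kept reads. Of the 2042110 kept alignments, 11398 were on these genes. The deposited table listed 5 of them under newer symbols (H2az1, H2az2, H2ax, Macroh2a1 and H1f10), which were matched through their transcript identifiers, and 3 under the symbols used here.

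P19 is a mouse embryonal carcinoma line, a wild-type pluripotent cell type that can be grown undifferentiated, and direct RNA sequencing on nanopores reads native mRNA molecules from the tail end, so that each read gives 1 tail length. Undifferentiated cells were transfected with a pool of scrambled siRNAs (siCtl) or with an siRNA against Larp1 (siLarp1). Each treatment had 3 libraries collected 24 h after transfection and 2 collected at 48 h, for which the cells had been transfected again after 24 h. Libraries are biological replicates per the study's methods. The knockdown asks how the RNA-binding protein LARP1, known for its binding to mRNAs with a 5′-terminal oligopyrimidine motif and to poly(A) tails, bears on tail length. Libraries are named here by the number they have in the deposited table, since that table does not tie them to the labelled replicates.

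Most histone mRNAs are made in S phase, end in a stem-loop and have no poly(A) tail. Replacement variants are made throughout the cell cycle from genes outside the histone clusters, and their mRNAs are cleaved and polyadenylated like other mRNAs. H2A.Z and H3.3 replace the canonical histones at promoters and other open sites, H2A.X is phosphorylated next to DNA breaks, macroH2A is linked to silent chromatin, and H1.0 and H1.10 are linker histones.

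Each library held between 112720 and 423398 kept reads, and at 24 h each siLarp1 library was shallower than each siCtl library. Per the study's methods, samples of siCtl and of siLarp1 were barcoded and pooled separately at 24 h, so that treatment and pool cannot be told apart there, whereas all samples at 48 h shared 1 pool. Larp1 was at 75.9 to 85.0 RPM (a gene's kept reads per 1000000 kept reads of the library) in siCtl and 19.1 to 44.9 RPM in siLarp1 libraries at 24 h, and at 123.1 to 168.6 RPM against 18.5 to 24.9 RPM at 48 h, from 3 to 6 reads in each siLarp1 library. All 8 embryonal carcinoma markers had reads, with a sum of 3239 to 4115 RPM. Neuronal markers summed to 196 to 369 RPM with Neurod1 at 0, those of fibroblasts or smooth muscle to 6.17 to 17.7 RPM, and those of endoderm to 0 to 24.9 RPM with Sox17 at 0.

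The 8 genes differed widely in abundance. A read stands for 1 molecule, so the levels were compared without division by length. H2afz had 4499 reads and a median over the 10 libraries of 2163 RPM, which placed it at rank 101 among all genes. H3f3a had 3109 reads (median 1549 RPM) and H3f3b 2322 reads (median 1107 RPM). The second H2A.Z gene, H2afv, stood at 308 RPM and H2afx at 174 RPM. H1fx (98.2 RPM, range 50.1 to 134.3) and H1f0 (89.8 RPM, range 68.5 to 174.2) were lower and their ranges overlapped. H2afy was lowest, with 68 reads in all, 4 to 12 in a library, and a median of 31.6 RPM. In this order the ranges of H2afz (1802 to 2447 RPM) and H3f3a (1321 to 1602 RPM) did not overlap, nor did those of H3f3b (1006 to 1413 RPM) and H2afv (265.8 to 481.1 RPM) or of H2afv and H2afx (116.8 to 261.1 RPM). H3f3a and H3f3b overlapped, as did H2afx and both linker histone genes.

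**Figure D1:**
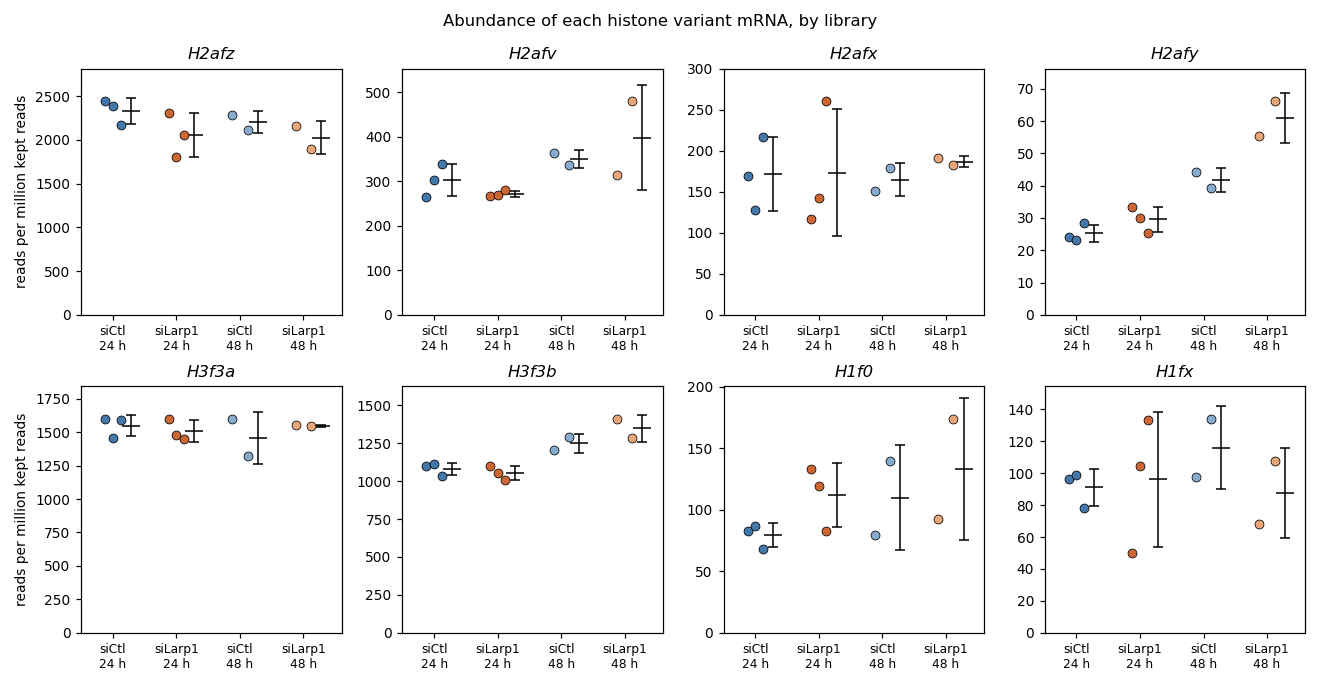
Abundance of the 8 histone variant mRNAs in RPM (y axis from 0, a separate scale for each gene) by treatment at 24 h (n = 3 per treatment) and 48 h (n = 2 per treatment). Points are libraries, and the bar beside them is the mean ± SD. The lowest points of H2afz, H3f3a and H3f3b, at 1802, 1321 and 1006 RPM, lie above the highest point of any other member, at 481.1 RPM.

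Where these mRNAs end was read from the last aligned base of each read. In GRCm38 (GENCODE M21, whose transcripts of the 8 genes have the same versions and positions as those in the deposited table), 14 ends with at least 20 reads and 10% of a gene's reads were found, and 11003 of the 11398 reads lay within 25 nt of one of them. The 3′ untranslated region of H2afz on chromosome 3 ended at 2 places, 375 and 470 nt after the stop codon, with 82.2% of the reads (79.0% to 84.6% over libraries) at the proximal end and 16.6% at the distal one. H3f3a on chromosome 1 ended at 302, 356 and 507 nt, with 77.9% of the reads at the last. Its main annotated transcript runs on for a further 1738 nt. H3f3b on chromosome 11 used 3 ends at 344, 549 and 1116 nt with 36.9%, 19.8% and 32.0% of its reads, and H1f0 on chromosome 15 used 2 ends at 131 and 1193 nt with 27.3% and 71.2%. The other 4 genes each had 1 end. That of H2afv held 94.1% of its reads and lay 914 nt before the end of its main annotated transcript. It lay at position 6428143 of chromosome 11, next to the annotated end of a second H2afv transcript at 6428138.

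A poly(A) signal, AATAAA or ATTAAA on the strand of the transcript, began 10 to 40 nt before the end at 11 of the 14 ends, with AATAAA at 6 and ATTAAA at 5. Over 6353 transcripts with at least 30 kept reads, 79.1% held either of them in the same window before their annotated end and 64.3% held AATAAA. The sequences of the genes with several ends follow, with the signal in capitals, since they let the ends be told apart, together with that of H2afv. Neither signal was found at the end of H2afv or the second end of H3f3a.
H2afz proximal end (chr3:137866800-137866822, plus strand): tcAATAAAggtcatatcccaaac
H2afz distal end (chr3:137866895-137866917, plus strand): taATTAAAcagtgcatctgtagt
H3f3a first end (chr1:180802775-180802800, minus strand): taAATAAAcctgttaaaattttctgg
H3f3a second end (chr1:180802721-180802750, minus strand): taaaataagtaaatttcttattgacggcaa
H3f3a last end (chr1:180802570-180802587, minus strand): ctATTAAAatacattaaa
H3f3b first end (chr11:116023063-116023081, minus strand): gcAATAAAactggttatga
H3f3b second end (chr11:116022858-116022876, minus strand): aaATTAAAtgttttacatt
H3f3b last end (chr11:116022291-116022311, minus strand): caAATAAActtgtttattcaa
H1f0 proximal end (chr15:79029406-79029435, plus strand): ttATTAAAgaggacagagtttggatccctc
H1f0 distal end (chr15:79030481-79030499, plus strand): aaAATAAAactggaaagga
H2afv end (chr11:6428143-6428172, minus strand): acaaaagtagaattgataaaacatttttta
Each sequence except that of the proximal end of H1f0, which stops 2 bases earlier, runs to the position named as the end. That position is the one with the most reads ending within a few nt of it. It need not be the most frequent last aligned base. Alignments can stop short of a cleavage site where the genome continues with A.

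**Figure D2:**
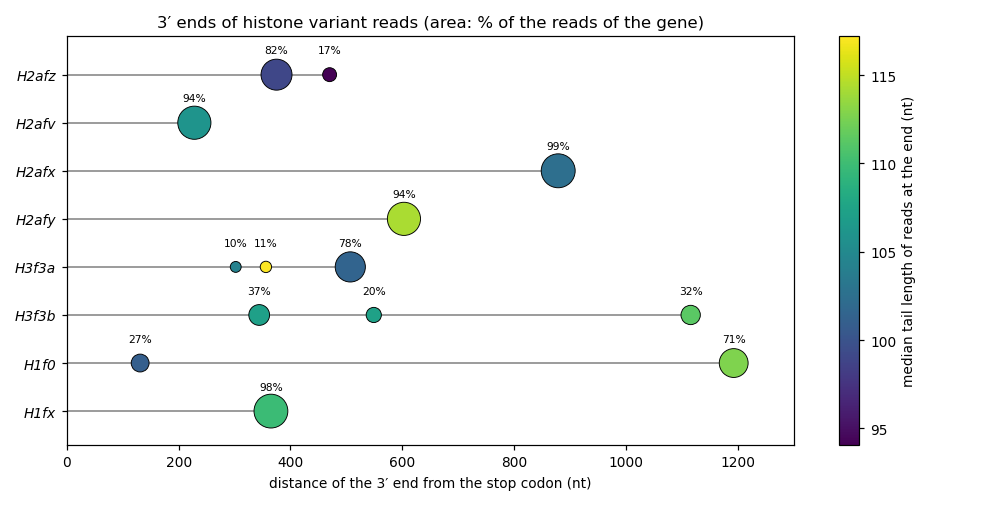
The 14 ends of reads on the 8 histone variant genes, by distance from the stop codon in nt (x axis), with the circle area and the label giving the percent of the gene's reads at that end and the colour the median tail length in nt of those reads over all libraries. H2afz, H3f3a, H3f3b and H1f0 ended at 2 or 3 places and the other 4 genes at 1.

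H2afx carries a second kind of 3′ end signal. It is known to be made both as a stem-loop mRNA in S phase and as a polyadenylated one. The only match to the histone stem-loop consensus among the main transcripts of the 8 genes was in H2afx, 46 nt after the stop codon and 822 nt before the annotated end, and 14 of 6353 transcripts (0.22%) held one. The capitals mark the match.
H2afx stem-loop (chr9:44335235-44335260, plus strand): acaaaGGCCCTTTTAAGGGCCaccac
Of the 361 reads of H2afx, 0 ended within 25 nt of it, which allows a share of up to 0.831%, and 356 ended at the polyadenylated end 879 nt after the stop codon. RNA was selected on oligo(dT) and ligated through the tail, so molecules without a tail were not measured.

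Tails of these mRNAs lay within the range of most other genes. Over all libraries together, the median tail of genes with at least 100 kept reads (2612 genes) was 103.5 nt, with 10% of genes under 90.8 nt and 10% over 120.6 nt. H2afz had a median tail of 97.7 nt, and 28.3% of these genes had a shorter one. The medians of H3f3a (103.0 nt), H2afx (103.3 nt), H2afv (106.0 nt) and H3f3b (106.6 nt) lay near the middle. Longest were the linker histones H1fx (109.8 nt) and H1f0 (110.5 nt), above 70.3% and 72.0% of genes. The share of tails shorter than 30 nt was highest in H3f3b (3.75%, 87 reads), H2afz (3.40%, 153 reads) and H2afx (3.32%, 12 reads). It was 1.93% in H3f3a and 0 of 68 reads in H2afy, which allows a share of up to 4.41%.

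Genes that code for the same or nearly the same histone had tails of different length in the same libraries. The median tail of H3f3a was shorter than that of H3f3b in 10 of 10 libraries, with a mean difference of −6.58 nt (SD 4.91, range −16.0 to −1.06; permutation of signs, two-sided, p = 0.00195, adjusted over the 3 pairs p = 0.00586, the smallest that 10 libraries allow before adjustment). H3f3a also had the lower share of <30-nt tails in 10 of 10 libraries, with a mean difference of −1.97 percentage points. With a mapping quality of at least 10 this pair could not be compared, since 0.043% of H3f3b reads reached it. The median tail of H2afz was shorter than that of H2afv in 9 of 10 libraries, with a mean difference of −9.13 nt (SD 7.67; permutation p = 0.00977, adjusted p = 0.0147). With mean in place of median tails this difference was −2.11 nt and did not pass the test (permutation, adjusted p = 0.437), while that of H3f3a and H3f3b was −7.27 nt and passed. The exception for the median was siLarp1 library 19 at 24 h, with 108.7 nt in H2afz and 102.9 nt in H2afv from 32 reads. H1f0 was longer than H1fx in 5 libraries and shorter in 5 (mean difference 5.70 nt, SD 26.7; permutation p = 0.527).

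**Figure D3:**
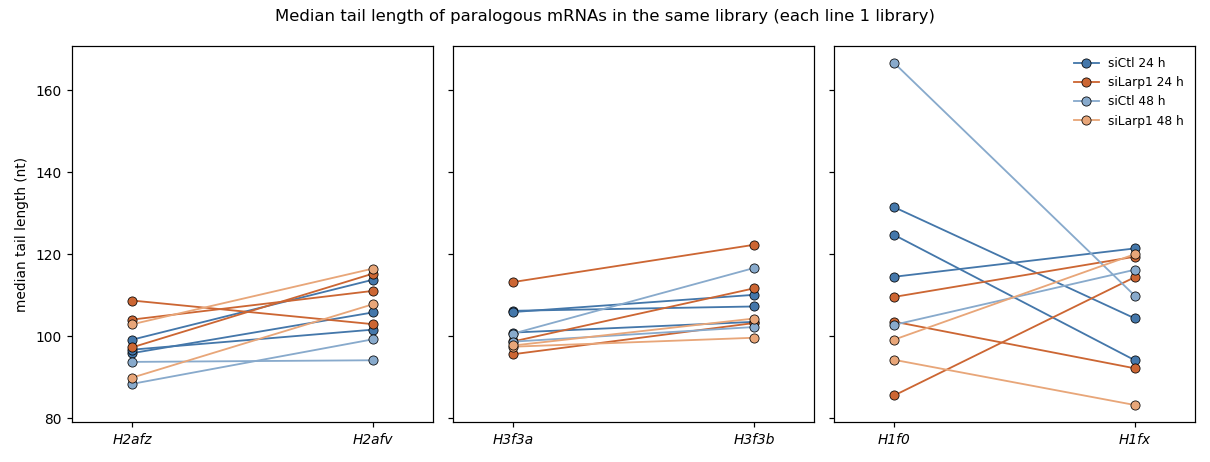
Median tail length in nt (y axis) of H2afz and H2afv, H3f3a and H3f3b, and H1f0 and H1fx, with each line joining the values of 1 library, coloured by group. Lines rise from H3f3a to H3f3b in 10 of 10 libraries and from H2afz to H2afv in 9, and they cross between H1f0 and H1fx.

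Within a gene, 0 of 7 pairs of ends differed in tail length after adjustment, and 1 had an unadjusted permutation p under 0.05. Compared were ends with at least 5 reads each in all 10 libraries. The largest difference was in H3f3a, where reads at the middle end had a median tail of 114.3 nt and those at the last end 99.8 nt (mean difference 14.5 nt, SD 16.1, longer in 8 of 10 libraries; permutation of signs p = 0.0156, adjusted over the 7 pairs p = 0.109). In H2afz the proximal end had tails 4.59 nt longer than the distal end (range −11.4 to 25.5 nt; permutation p = 0.219). Both H1f0 ends reached 5 reads in 5 libraries only and were not tested. Tails at the first and last ends of H3f3b, the ends farthest apart of that gene, were 107.7 and 113.2 nt (permutation p = 0.0918, adjusted p = 0.306).

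Knockdown of Larp1 left the 8 genes without a call in any measure. limma was fitted across all genes to the median tail, the share of <30-nt tails, the share of tails of 30 to 90 nt (the ∼60-nt class) and the abundance of each gene, with Benjamini-Hochberg adjustment over all genes tested and an adjusted p under 0.05 as the call. H2afy, with fewer than 30 reads at 48 h, was not tested, and H1f0 and H1fx did not reach the minimum of 100 reads for the shares. For the median tail 0 of 7 members were called at 24 h, where 0.0741% of 2698 genes were, 0 of 7 at 48 h (background 0%) and 0 of 7 in the mean of both times (0.0371%). For the <30-nt share 0 of 5 were called at 24 h (0.831% of 842 genes), 48 h (2.61%) and in the mean of both (4.51%). For the ∼60-nt share 0 of 5 were called, against 0.713%, 0% and 0.594%. For abundance 0 of 7 were called, against 0%, 0.0371% and 0.259%. At an unadjusted limma p under 0.05, 1 member passed for the median at 24 h and 1 in the mean of both times, 1 for the ∼60-nt share at 24 h and 1 in the mean of both, 1 for abundance at 24 h, and 0 in the other 7 comparisons. Of all genes, 6.12% and 6.19% passed this limit for the median at 24 h and in the mean of both times, 8.31% and 9.98% for the ∼60-nt share, and 5.89% for abundance at 24 h. For the <30-nt share 11.2% passed at 24 h, 15.2% at 48 h and 17.6% in the mean of both. The remaining shares were 5.71% for the median and 8.67% for the ∼60-nt share at 48 h. For abundance they were 5.52% at 48 h and 7.19% in the mean of both. The members' median difference in median tail was 0.66 nt at 24 h beside 1.29 nt over all genes, and −6.06 nt at 48 h beside 2.84 nt. In 48 h minus 24 h, 0 members were called and 0 had an unadjusted limma p under 0.05. Of all genes, 0 were called there, and 5.11% (median), 6.89% (<30-nt share), 7.13% (∼60-nt share) and 4.19% (abundance) had such a p.

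**Figure D4:**
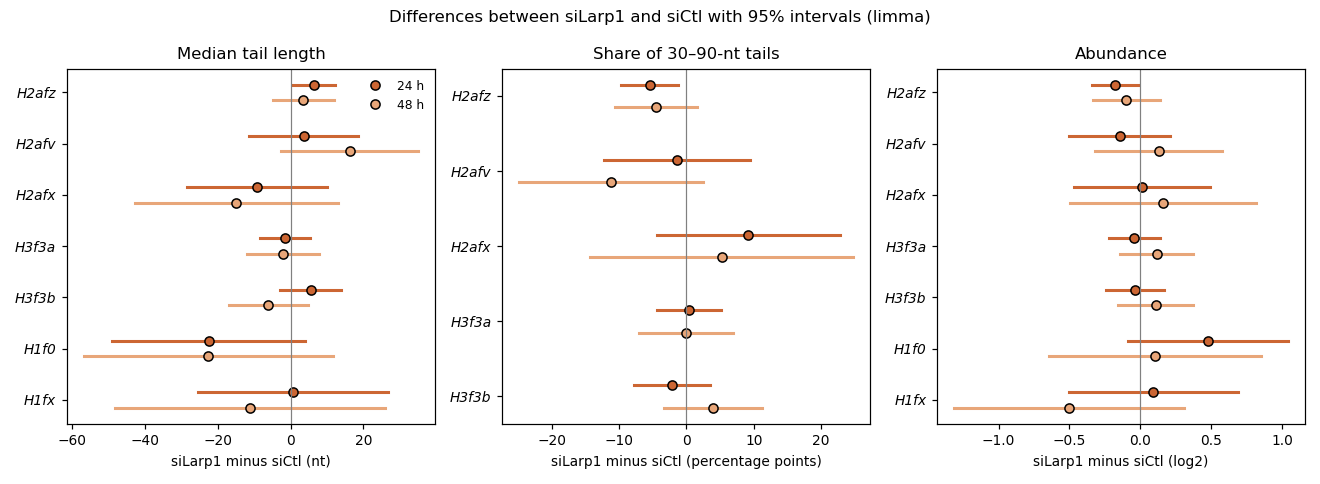
Differences between siLarp1 and siCtl from limma at 24 h and 48 h (siLarp1 minus siCtl, points) with their 95% intervals (lines) for the median tail in nt, the share of 30 to 90-nt tails in percentage points and the abundance on the log2 scale. The intervals are narrowest for H2afz, H3f3a and H3f3b, and all 3 unadjusted intervals that leave out 0 are those of H2afz at 24 h.

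H2afz, the gene with the most reads, had the smallest p-values of the 5 genes for the ∼60-nt share at 24 h and in the mean of both times. At 24 h its share of ∼60-nt tails was 44.4%, 39.5% and 41.8% in siCtl libraries and 32.2%, 42.7% and 35.0% in siLarp1 libraries. The 48 h shares were 47.3% and 44.3% with siCtl and 43.1% and 37.7% with siLarp1. The groups overlapped at 24 h through siLarp1 library 21. They did not overlap at 48 h (exact permutation p = 0.33, the smallest that 2 against 2 libraries allow). Over all reads of a library the ∼60-nt share did not overlap at 48 h either, at 41.7% and 40.7% with siCtl and 39.9% and 37.0% with siLarp1. The part of this shift in the H2afz share was not tested. The share of all genes without overlap at a single time point was not computed, for this measure or any other. Exact 95% binomial intervals of the H2afz shares had half-widths of 3.24 to 6.48 percentage points, which cover counting error only. In limma the share was lower by 4.99 percentage points in the mean of both times (SE 1.85, 95% interval −8.66 to −1.32, p = 0.0082), with an adjusted p of 0.256, and an exact permutation within time points gave p = 0.0667.

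The median tail of H2afz at 24 h was 95.9, 99.1 and 96.7 nt with siCtl and 108.7, 97.3 and 104.0 nt with siLarp1. The 48 h medians were 88.4 and 93.7 nt with siCtl and 89.9 and 102.9 nt with siLarp1. Groups overlapped at both times, and the limma difference was 6.35 nt at 24 h (SE 2.89, adjusted p = 0.792) and 3.49 nt at 48 h (SE 4.15, adjusted p = 0.97). Its abundance was 2332 ± 147 RPM in siCtl and 2054 ± 250 RPM in siLarp1 libraries at 24 h (SD, n = 3), and 2199 ± 127 and 2025 ± 190 RPM at 48 h (SD, n = 2). This was a limma log2 difference of −0.18 (SE 0.08, adjusted p = 0.786) at 24 h and −0.10 (SE 0.12, 95% interval −0.34 to 0.14) at 48 h. In bulk RNA, fewer cells of a kind and less mRNA per cell cannot be told apart. The same interval for the mean of both times, −0.28 to 0.01, bounds what these libraries allow.

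H2afv, the second H2A.Z gene, had tails at 24 h of 107.0 ± 6.19 nt with siCtl and 109.7 ± 6.27 nt with siLarp1 (SD, n = 3), and these overlapped. At 48 h its median tail was 99.2 and 94.1 nt with siCtl and 107.8 and 116.5 nt with siLarp1, from 41 to 60 reads each. The 48 h groups did not overlap (exact permutation p = 0.33, the smallest that 2 against 2 libraries allow), and limma gave 16.2 nt (SE 9.39, adjusted p = 0.910). This was the largest positive difference of the 7 genes at 48 h, and its 95% interval, −2.60 to 35.0 nt, includes 0.

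For the H2A.X gene H2afx, the median tails of siLarp1 libraries were spread more widely than those of siCtl libraries. This was not particular to H2afx. At 24 h the SD was 1.71 nt with siCtl and 5.73 nt with siLarp1 in H2afz. It was 2.98 and 9.40 nt in H3f3a, and 3.31 and 9.56 nt in H3f3b. At 48 h the siLarp1 SD was the smaller in H3f3a and H3f3b. The part of read depth in these spreads was not tested. The median tail of H2afx at 24 h was 104.7, 101.3 and 103.7 nt with siCtl, from 49, 44 and 92 reads. With siLarp1 it was 79.1, 115.1 and 89.7 nt, from 14, 19 and 41 reads. The 48 h medians were 112.0 and 122.8 nt with siCtl and 89.6 and 124.8 nt with siLarp1. The limma difference was −9.19 nt (SE 9.62) at 24 h and −14.8 nt (SE 13.9) at 48 h, with adjusted p of 0.960 and 0.967. Its abundance was 171 ± 44.8 RPM in siCtl and 173 ± 77.0 RPM in siLarp1 libraries at 24 h (SD, n = 3), and 165 ± 20.0 and 187 ± 6.21 RPM at 48 h (SD, n = 2), where the siLarp1 libraries were the closer together.

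H2afy, the macroH2A gene, could be described by its reads alone. At 24 h it had 24.2, 23.2 and 28.3 RPM in siCtl and 33.4, 29.9 and 25.5 RPM in siLarp1 libraries, from 7, 8 and 12 reads against 4 in each. At 48 h it had 44.4 and 39.2 RPM in siCtl and 55.5 and 66.4 RPM in siLarp1 libraries, from 5, 7, 9 and 8 reads. An exact permutation within time points gave p = 0.0333 for the log2 RPM, with a mean difference of 0.38. With a barcode confidence of at least 0.9 the difference was 0.22 (exact permutation p = 0.417), and with a mapping quality of at least 10 it was 0.04 (p = 0.817). Leaving out library 19 or 21 of either 24 h group gave an exact permutation p of 0.0667, and leaving out library 25 of either 48 h group gave 0.05. This was 1 of 2 values under 0.05 among 32 such tests (8 genes, 4 measures), which were not adjusted for their number. The share of all genes under 0.05 in such tests was not computed, so the count is not read as a result about these genes.

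The H3.3 genes had the narrowest intervals after H2afz. The median tail of H3f3a at 24 h was 100.9, 106.2 and 105.9 nt with siCtl and 98.7, 95.6 and 113.2 nt with siLarp1. The 48 h medians were 100.6 and 98.7 nt with siCtl and 97.4 and 97.7 nt with siLarp1. The groups overlapped at 24 h. They did not overlap at 48 h (exact permutation p = 0.33, the smallest that 2 against 2 libraries allow), and the share of all genes that do so was not computed. The limma 95% interval for the mean difference of both times ran from −7.75 to 4.27 nt. H3f3a abundance was 1549 ± 78.3 and 1509 ± 82.1 RPM at 24 h (SD, n = 3), a log2 difference of −0.04 with a 95% interval from −0.22 to 0.14.

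H3f3b had a median tail of 106.9 ± 3.31 nt with siCtl and 112.4 ± 9.56 nt with siLarp1 at 24 h (SD, n = 3), and of 109.4 ± 10.2 and 101.9 ± 3.32 nt at 48 h (SD, n = 2). Its limma difference was 5.50 nt at 24 h and −6.06 nt at 48 h, and the difference between the times was −11.6 nt (SE 6.77, adjusted p = 0.987). The 24 h difference was −0.0913 nt with mean tails and −0.979 nt with reads of its main transcript. That transcript held 50.7% of its reads and cannot be told apart from the second one here. Its share of <30-nt tails at 24 h was 2.2%, 2.87% and 3.64% in siCtl and 3.79%, 5.67% and 5.06% in siLarp1 libraries, without overlap (exact permutation p = 0.1, the smallest that 3 against 3 libraries allow). At 48 h it was 5.15% and 3.03% against 4.37% and 5.16%, with overlap, and limma gave 1.89 percentage points at 24 h (SE 1.02, adjusted p = 0.527) and 0.873 at 48 h (SE 1.32). Each H3f3b share rested on 5 to 16 short-tailed reads. Over all reads of a library the <30-nt share did not overlap at 24 h either. The share of all genes without overlap there was not computed.

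All 5 tested genes had a higher <30-nt share in siLarp1 libraries at 24 h, with a median difference of 1.01 percentage points beside 0.398 over 842 genes. At 48 h 4 of 5 were higher, with a median of 0.873 beside 0.848. H2afv was the exception at 48 h, at 4.88% and 5.0% in siCtl and 1.96% and 1.72% in siLarp1 libraries, which are 2 and 3 reads against 1 and 1. Over all reads of a library the <30-nt share was 2.15% to 2.42% with siCtl and 2.63% to 3.22% with siLarp1 at 24 h, and 2.82% to 2.96% and 3.37% to 4.2% at 48 h, without overlap at either time. The part of this shift over all genes in the members' values was not tested. In the ∼60-nt share, 3 of 5 genes were lower at 24 h with a median of −1.36 percentage points, beside −0.911 over all genes. At 48 h 3 of 5 were lower with a median of −0.0461, beside −2.97, and in the mean of both times 3 of 5 were higher with a median of 0.158, beside −2.06.

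H1f0, which codes for the linker histone of resting and differentiated cells, was the only gene of the 7 tested whose median tails did not overlap between treatments at both times. At 24 h it had 131.4, 114.5 and 124.6 nt in siCtl libraries, from 24, 30 and 29 reads, and 109.6, 103.5 and 85.6 nt in siLarp1 libraries, from 16, 16 and 13 reads. At 48 h it had 166.6 and 102.8 nt in siCtl libraries, from 9 and 25 reads, and 94.2 and 99.2 nt in siLarp1 libraries, from 15 and 21 reads. Every siLarp1 value was below every siCtl value of its time point, a pattern that 0.779% of 2696 genes showed in this direction. The reverse order was shown by 1.56% of these genes and by 0 of the 7 members. H1f0 was picked out of the 7 by this pattern. The mean of both differences was −31.0 nt (exact permutation within time points, p = 0.0167, the smallest that 120 arrangements allow), whereas limma, which weights libraries by reads, gave −22.5 nt (SE 10.8, 95% interval −44.1 to −0.90) in the mean of both times with an adjusted p of 0.732.

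That pattern of H1f0 depended on the summary. With mean tails the difference was −16.1 nt (exact permutation p = 0.117), with all quality tags −31.45 nt (p = 0.0833) and with libraries thinned to 112720 kept reads −31.1 nt (p = 0.133). At the distal end alone, chosen after the data were seen, it was −18.3 nt (exact permutation p = 0.2), and siLarp1 libraries (98.4 to 117.0 nt) lay among siCtl libraries (97.6 to 151.6 nt). Without the 48 h siCtl library 24, of 9 reads, the difference over all ends was −15.0 nt (exact permutation p = 0.0333), and without library 25 of the same group it was −46.9 nt (p = 0.0167). Without either 48 h siLarp1 library, the exact permutation p was 0.233 (library 24) or 0.2 (library 25).

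H1fx, the other linker histone gene, had 50.1 to 134.3 RPM and tails that overlapped at both times. Its median tail was 106.6 ± 13.8 nt with siCtl and 108.6 ± 14.5 nt with siLarp1 at 24 h (SD, n = 3), and 113.0 ± 4.53 and 101.6 ± 26.0 nt at 48 h (SD, n = 2). The limma interval for the mean of both times ran from −27.8 to 17.4 nt. In abundance, the largest limma differences of the 7 genes at each time were those of the linker histone genes, 0.48 in H1f0 at 24 h (SE 0.28, adjusted p = 0.877) and −0.505 in H1fx at 48 h (SE 0.40, adjusted p = 0.914), both on the log2 scale.

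**Figure D5:**
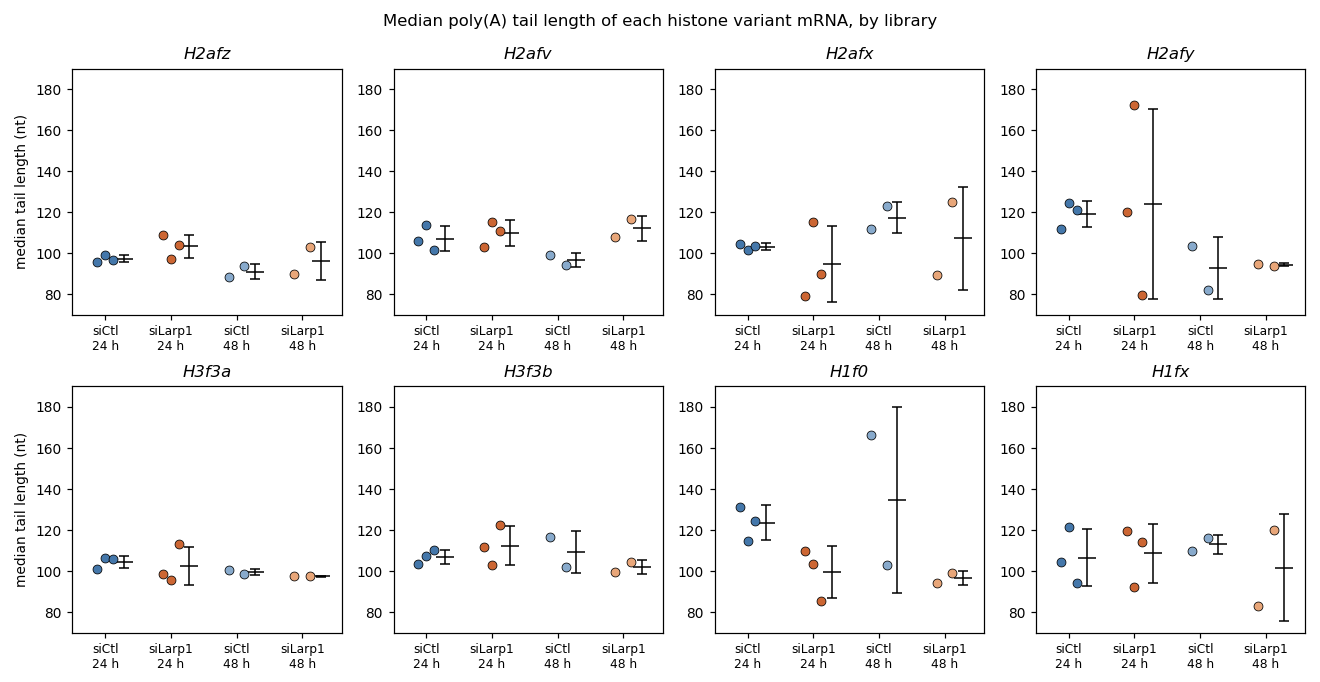
Median poly(A) tail length in nt (y axis from 70 to 190 nt) of the 8 histone variant mRNAs by treatment at 24 h (n = 3 per treatment) and 48 h (n = 2 per treatment). Points are libraries and the bar is the mean ± SD. In H1f0 each siLarp1 point lies below each siCtl point of its time, while in H2afz, H2afx, H3f3b and H1fx the treatments overlap at both times.

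In the choice of 3′ end, 0 of the 14 ends had an exact permutation p under 0.05 between treatments, within time points. The smallest p was that of H3f3b, whose last end took 31.8% ± 2.49 of the reads in siCtl and 30.2% ± 3.42 in siLarp1 libraries at 24 h (SD, n = 3), and 38.6% ± 6.69 and 27.6% ± 1.68 at 48 h (SD, n = 2; exact permutation p = 0.0833 over both times). The widest shift in the mean of both times, 7.69 percentage points against −6.29 in H3f3b, was that of the distal end of H1f0, which took 65.2% with siCtl and 66.8% with siLarp1 at 24 h and 73.3% and 87.1% at 48 h (exact permutation p = 0.233). The proximal end of H2afz took 81.9% to 83.0% of its reads in all 4 groups.

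In 3 genes a second annotated transcript held at least 10% of the reads, while in H2afz and H3f3a a second transcript held 26 and 47 reads. H2afv had 85.1% of its reads on a transcript of 5 exons and 14.9% on one of 4 exons, with median tails of 106.0 and 106.3 nt, and the first share was higher by 1.54 percentage points in siLarp1 libraries (exact permutation p = 0.633). H2afy had 80.9% and 14.7% of its 68 reads on 2 transcripts (exact permutation p = 0.817 for the first). H3f3b had 50.7% and 49.3% on 2 transcripts, and 0.043% of its reads had a mapping quality of at least 10, so its transcripts cannot be told apart here.

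Genes that work with these histones had no calls in the mean of both times, where calls were rare over all genes. Of 2698 genes, 0.0371% were called in limma for the median tail and 0.259% for abundance. At an unadjusted limma p under 0.05, 6.19% passed for the median tail and 7.19% for abundance. These are the shares to set beside each list of genes below. Of 9 genes listed for the deposition of H3.3, among them the histone chaperones Nasp and Asf1a, 3 could be tested in limma. Of these, 0 were called for tail or abundance (unadjusted p under 0.05 for 1 tail and 0 levels). Nasp, a histone chaperone, had median tails of 130.5 nt with siCtl and 115.5 nt with siLarp1 (limma −16.3 nt, SE 7.03, adjusted p = 0.691). The second most read was Asf1a, a chaperone of H3 and H4, with a log2 difference in abundance of −0.31 (SE 0.25). For deposition or removal of H2A.Z, 7 of 12 were tested and 0 called (unadjusted, 0 for both), 6 with a shorter and 1 with a longer tail in siLarp1 libraries, with the ATPases Ruvbl2 at 305 and 304 RPM and Ruvbl1 at 162 and 184 RPM in siCtl and siLarp1 libraries.

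Among other histone chaperones 10 of 11 were tested in limma and 0 called (unadjusted p under 0.05 for 2 tails and 1 level), 7 with a longer and 3 with a shorter tail. Npm1 (nucleophosmin), with 12430 reads, had a log2 difference in abundance of −0.18 (SE 0.05, limma adjusted p = 0.0889), and Ncl (nucleolin) one of 0.16 (SE 0.09). Of the genes for stem-loop processing 4 of 8 were tested and 0 called (unadjusted, 0 for both), 3 with a longer tail. Slbp, which codes for the stem-loop binding protein, had a log2 difference in abundance of −0.18 (SE 0.27), and Cpsf3, the endonuclease, one of 0.08 (SE 0.29). All 13 proliferation genes were tested and 0 called (unadjusted, 1 tail and 0 levels), 9 with a higher and 4 with a lower level, Pcna (the replication clamp) with 555 and 613 RPM and Mcm7 (replicative helicase) with 256 and 265 RPM in siCtl and siLarp1 libraries. Of 6 other variant histone genes 2 were tested and 0 called (unadjusted, 0 for both), with log2 differences in abundance of 0.19 (SE 0.16) in Cenpa, the centromeric H3, and 0.15 (SE 0.28) in H2afj.

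Replication-dependent histone genes appeared as a trace. Of 55 such genes 51 had kept reads, 380 in all, and 0 reached the minimum for a test, with Hist1h3c (51 reads) and Hist1h2ag (42 reads) highest. Their sum was 162 to 206 RPM in siCtl and 184 to 229 RPM in siLarp1 libraries at 24 h, and 151 to 179 and 160 to 207 RPM at 48 h, with overlap at both times.

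Over the 10 libraries, the log2 RPM most like that of H2afz among 2698 genes was that of Ndufs8 (Pearson r = 0.902), followed by Timm8b (0.872) and Mrpl38 (0.867). These genes code for a subunit of respiratory complex I, a mitochondrial import factor and a mitochondrial ribosomal protein. The correlations are the highest of those with 2698 genes over only 10 libraries, and they were not tested. They describe libraries that share pools and depths. That between H2afz and H2afv was −0.32, and that between H3f3a and H3f3b −0.10.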

How the data were processed

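Reads were base called by the authors with Guppy, demultiplexed with Deeplexicon and aligned with minimap2 2.20 to mm10 transcripts of GENCODE, and tails were estimated with Nanopolish. The deposited table, which the authors did not filter, held 2652217 alignments of 2577272 reads, each with a tail length in nt as a signal-based estimate, a quality tag, a barcode confidence deposited as a fraction and a mapping quality deposited as a score. Of the alignments, 81.4% carried the tag PASS. Kept here were PASS alignments to mRNAs, without mitochondrial genes and pseudogenes. A read aligned to several sequences was kept at each.

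Reads were tallied per gene and library with Python 3.11.15 and tested with limma 3.58.1 in R 4.3.3, with a mean for each of the 4 groups, weights equal to the reads behind a value and an empirical Bayes trend (voom for abundance). Genes needed 30 reads at each time point, or 100 for the shares of tail classes. Single values of the members were tested by exact permutation of the treatment within time points (two-sided, 120 arrangements), and pairs of genes or ends by permutation of signs within libraries. The 3′ ends were defined after the data were seen. Scripts were tested on simulated data. The members, gene lists and tests were chosen with earlier results of these data known. All 8 members are named, with the 2 most read genes of each list and the 3 genes most like H2afz.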

Additional observations from a re-analysis of the deposited data

How the results depend on the processing

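Members called stayed at 0 in each of the 4 measures at 24 h, at 48 h, in the mean of both and in their difference, under each alternative and without each library in turn. The lowest adjusted p of a member was 0.0701, for the ∼60-nt share of H2afz without siLarp1 library 21. Counts over all genes, for the mean of both times, did move. For the median tail, 1 gene was called, but 0 with a mapping quality of at least 10, equal weights or thinned libraries, 2 with a minimum of 300 reads, 4 with a replicate block, 6 with mean tails, and 0 to 6 without each library. For the <30-nt share, 38 were called, but 0 with equal weights, 1 with tails under 20 nt, 6 with a minimum of 10 reads, 20 when thinned, 67 with all quality tags, 81 with a minimum of 300 reads, and 23 to 51 without each library. For the ∼60-nt share, 5 were called, but 1 with a barcode confidence of at least 0.9 or equal weights, 2 with a minimum of 300 reads, 8 with the replicate block, 9 with all tags, 10 when thinned, and 0 to 10 without each library. For abundance, 7 were called, but 3 with a barcode confidence of at least 0.9, 26 with the replicate block, and 0 to 11 without each library.

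Same-numbered libraries correlated in their deviations of abundance at 0.0637, 0.269 and 0.278 at 24 h and 0.117 at 48 h, and of median tails at −0.011 to 0.0586. The criterion for pairing, over 0.1 in every pair, was not met, and the labels give no shared source. As a hint from the data and not the design, 6 of 6 libraries at 24 h correlated best with their own number in either measure. These 6 count each same-numbered pair from both sides and are not 6 separate results. For median tails the correlations at 24 h were 0.0109 to 0.0586. The block raised the genes called for abundance from 7 to 26. The replicate block left the ∼60-nt share of H2afz at −5.42 percentage points.

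Of the 32 exact permutation tests 2 were under 0.05, but 1 with a mapping quality of at least 10 or mean tails, 0 when thinned, and 0 (without 48 h siLarp1 library 25) to 4 (without 24 h siLarp1 library 22) when each library was left out. The share of all genes under 0.05 in such tests was not computed. H2afz minus H2afv was −2.11 nt with mean tails. Of the 14 ends, 0 differed in use with a window of 50 nt, chosen after the data were seen, and 0 to 1 without each library.

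Of 1419 alternative values of the members, 1398 stayed uncalled with the same sign or a shift under 1 SE, and 21 turned their sign, uncalled as before. The median tail turned for H3f3b at 24 h (−0.0913 nt with means, −0.979 nt with its main transcript) and, when thinned, for H1fx (15.7 nt) and H2afx (9.08 nt) at 48 h. With all quality tags the 48 h <30-nt shares of H3f3a (−0.593) and H3f3b (−0.881) turned, and with its main transcript the 24 h ∼60-nt share of H3f3b (1.63). The main transcript of H3f3b cannot be told apart from its second one. Without each library, the median tail ranged from −7.43 to 2.01 nt in H3f3a at 24 h, and at 48 h from −29.4 to 5.77 nt in H2afx and −1.64 to 11.4 nt in H2afz. The <30-nt share ranged from −2.16 to 4.05 points in H2afx at 24 h, from −0.709 to 3.08 in H2afz and −0.46 to 1.66 in H3f3b at 48 h, and from −0.279 to 1.61 in H2afz over both times. The log2 abundance ranged from −0.22 to 0.43 in H1fx and −0.36 to 0.23 in H2afx at 24 h, from −0.29 to 0.60 in H1f0, −0.14 to 0.47 in H2afv and −0.044 to 0.23 in H3f3a at 48 h, and from −0.14 to 0.16 in H2afv and −0.042 to 0.10 in H3f3a over both times. The cause was not tested.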
